A study of Mus musculus with 6 samples.

Results

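Hox genes of clusters A, B, C and D were examined in muscle stem cells (MuSCs) of mice with and without Sirt6. Every protein-coding gene of the deposited table whose symbol is Hoxa, Hoxb, Hoxc or Hoxd followed by its paralog number was taken, without regard to its values. These were 30 of the 25166 genes of the table, with 11 genes of cluster A, 7 of cluster B, 9 of cluster C and 3 of cluster D. The GENCODE M21 annotation holds 39 Hox genes. The other 9, which are Hoxb8, Hoxb9, Hoxb13, Hoxd1, Hoxd3, Hoxd10, Hoxd11, Hoxd12 and Hoxd13, have no row and were not analysed here.

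Hox genes encode homeodomain transcription factors that give cells a position along the body axis and the limb. Within a cluster the genes stand in the order of their paralog numbers, low numbers being used toward the head and high numbers toward the tail and the end of the limb, and genes of the same number in different clusters are paralogs. Adult MuSCs keep part of the Hox pattern of the somites from which they descend, so that MuSCs of different muscles carry different Hox genes. TALE homeodomain proteins bind DNA together with Hox proteins, Polycomb proteins keep Hox clusters silent, and trithorax proteins keep them active.

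MuSCs were freshly isolated by FACS from male C57BL/6 mice of 12 weeks. In the Sirt6mKO group, Cre recombinase expressed from the Pax7 locus removes the floxed exons 4 to 6 of Sirt6, a deacetylase of histone H3, from cells with a history of Pax7 expression. The Ctrl group is wild type by its labels. A supplementary figure legend of the paper gives Cre-negative mice with floxed Sirt6 as controls, and its reporting summary names littermates. There were 3 libraries per group, each made from 100 to 200 sorted cells of pooled limb and trunk muscles, so that a Hox level here is a mean over MuSCs of several body regions. In such bulk samples, fewer cells expressing a gene and less RNA per cell cannot be told apart. The study's statistics section calls its RNA-seq replicates biological, but the labels do not tie the libraries to separate mice, so p-values measure the spread between these libraries, which may be technical.

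The homeobox is the most conserved part of these genes, and the sequences that follow show how far 2 paralogs of high level differ within it. Hoxa10 and Hoxc10 are posterior genes of the limb and trunk. Each homeobox is given 5′ to 3′ on the strand of its gene, from GENCODE M21 transcripts of GRCm38. In both genes it lies in exon 2 of a transcript of 2 exons. Capitals mark bases of Hoxc10 that differ from Hoxa10.
Hoxa10 homeobox, chr6:52232554-52232733, - strand: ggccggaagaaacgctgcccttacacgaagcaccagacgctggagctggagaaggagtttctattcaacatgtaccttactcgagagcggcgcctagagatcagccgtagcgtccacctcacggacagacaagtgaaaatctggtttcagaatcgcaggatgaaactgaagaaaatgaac
Hoxc10 homeobox, chr15:102970848-102971027, + strand: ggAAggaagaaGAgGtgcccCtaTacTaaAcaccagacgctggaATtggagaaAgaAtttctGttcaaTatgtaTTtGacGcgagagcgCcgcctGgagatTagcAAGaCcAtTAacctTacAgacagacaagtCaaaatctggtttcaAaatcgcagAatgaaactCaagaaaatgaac

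The homeobox of Hoxc10 differs from that of Hoxa10 at 35 of 180 bases. Among the 35 Hox genes in which the homeobox was found, identity had a median of 82.0% in 36 pairs of the same paralog number (71.7 to 93.9%). It was 63.3% in 137 pairs of different numbers within a cluster and 62.2% in 422 other pairs. Despite this likeness, no stretch of 75 bases, the read length, in the transcripts of any of the 39 Hox genes recurred in a Hox gene of another cluster. Full-length reads without mismatches can thus be told apart between paralogs by sequence, and shorter or mismatched reads were not examined. Overlapping genes are a different matter, because the authors left out reads that fell on several genes and whether strand was used in counting is not stated. Exons of Hoxa7 share 586 bases with the antisense gene Hoxaas3, and Hoxb3 shares 2250 bases with Hoxb3os. Exons of Hoxc5, whose gene model starts within Hoxc10 and spans Hoxc9, Hoxc8 and Hoxc6, share 166 bases with Hoxc10. Hoxa5, Hoxa6, Hoxa10, Hoxc6, Hoxc8 and Hoxc9 share no exon base with another annotated gene.

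Each value, called signal here, equals the reads of a gene over a scaling factor of its library, as a rounded number. By estimate, 1267027 to 3209958 reads stood behind a library, and 1 read was worth a signal of 0.729 to 1.792. The lowest depth, and therefore the coarsest low values, belonged to Ctrl replicate 3. For Sirt6 itself, the libraries labelled Sirt6mKO held 19, 20 and 13 and those labelled Ctrl 18, 17 and 20, a gene-level value that includes exons outside the deletion and so does not check the labels. All 12 MuSC markers had rows, and their summed signal was 14435 to 15852 in Sirt6mKO and 16574 to 18344 in Ctrl, with 2 of 12 lower and 1 higher at the adjusted p threshold of 0.05 of limma-trend, which 4.52% of all tested genes passed. Lower were Pax7, at 1841, 2307 and 1810 against 4066, 3449 and 3150, and Chrdl2, and Cd34 was higher, at 690, 855 and 882 against 439, 605 and 563. The Cre allele at Pax7 belongs to the Sirt6mKO group, and its part in the Pax7 values was not tested. Summed markers ran from 9573 to 11640 against 6557 to 10219 for fibroblasts (10 of 10 with rows), from 60 to 1085 against 50 to 71 for tenocytes (6 of 6), from 697 to 2068 against 585 to 684 for myofibers (9 of 9) and from 3748 to 4962 against 2178 to 3361 for mural cells (5 of 6). The fibroblast sum was mostly Col3a1, at 7236, 6685 and 8461 against 8595, 7237 and 5795, and hides the other markers. Of the 8 tested fibroblast markers, 4 were higher in Sirt6mKO and 0 lower at the adjusted p threshold, with a median log2 fold change of 1.66. The mural sum was nearly all Notch3, and without it ran from 38 to 89 against 66 to 77. For endothelial cells the sums were 24 to 38 against 12 to 38 (5 of 6 with rows), for immune cells 36 to 71 against 35 to 61 (2 of 6) and for Schwann cells 51 to 107 against 80 to 117 (5 of 5). Ptprc, Adgre1, Cd3e and C1qa, which define leukocytes, and the endothelial gene Emcn had no row. The methods sort by the proteins of Itga7 and Cd34, or by a reporter, after removing cells with those of Ly6a, Ptprc and Pecam1. These genes are thus not independent of the sort. The part of the marker differences between groups in the Hox values was not tested.

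Hox transcripts of the MuSCs came nearly entirely from clusters A and C. Per library, cluster A held 45.3 to 51.0% of the summed Hox signal per kb of exon and cluster C 42.5 to 47.5%. Cluster B held 3.18 to 4.52% and cluster D 2.57 to 4.77%. By position, the central paralogs 4 to 8 held 52.9 to 59.3%, the posterior paralogs 9 to 13 held 34.9 to 40.6% and the anterior paralogs 1 to 3 held 4.91 to 9.63%. Sirt6mKO and Ctrl libraries overlapped in each of these 7 shares.

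**Figure D1:**
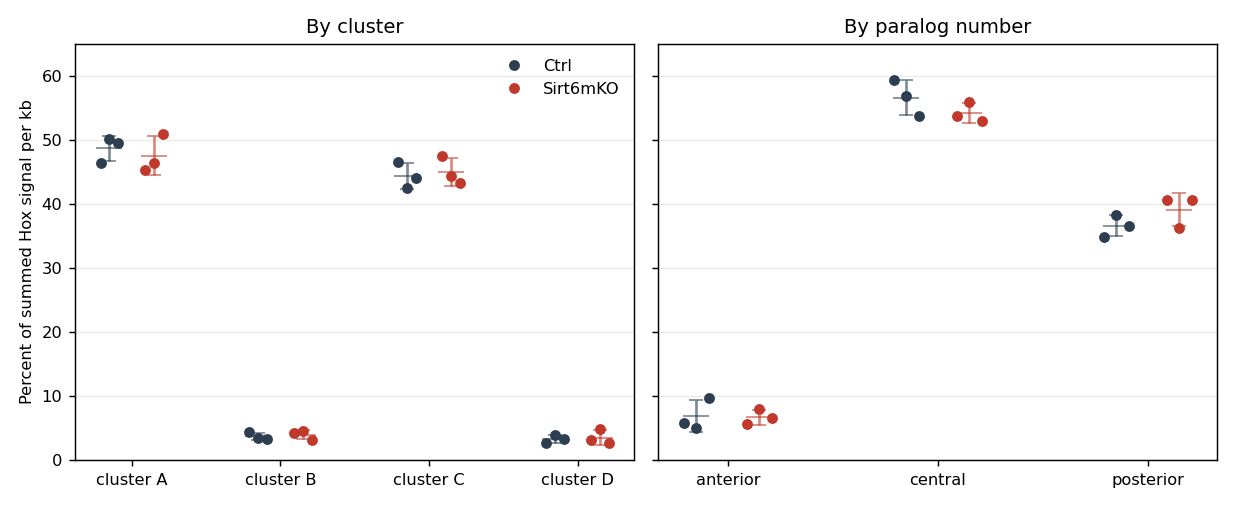
Percent of the summed Hox signal per kb of exon that each cluster (left) and each range of paralog numbers (right, anterior 1 to 3, central 4 to 8, posterior 9 to 13) held in each library. Points are libraries, bars are the mean and SD of the 3 libraries of a group. Clusters A and C each hold over 42% in every library and clusters B and D under 5%, in both groups.

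The highest level per length was that of Hoxc10, a gene of the lumbosacral trunk and the hindlimb, with a mean signal of 51.4 per kb of exon over the 6 libraries. Hoxa7, a gene of the thoracic trunk, followed at 40.9 per kb. Per kb of all exon bases, Hoxc10 was above Hoxa7 in 6 of 6 libraries with ranges that did not overlap. With bases shared with other genes left out of the lengths, the ranges of Hoxc10 and Hoxa7 overlapped. After Hoxa7 came Hoxa6 at 32.0, Hoxa10 at 30.9, Hoxc6 at 26.2, Hoxa5 at 23.1, Hoxc8 at 20.9 and Hoxc9 at 17.1 per kb. Each of these overlapped its neighbour in the order, and Hoxa6 was above Hoxa10 in only 3 of 6 libraries. By level per kb, Hoxc10 stood at percentile 85.3 of all tested genes, and Hoxc9, at percentile 54.3, was the last member above the median gene.

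Lower levels were those of Hoxc5 at 12.5, Hoxc4 at 11.9, Hoxa9 at 11, Hoxd8 at 8.56, Hoxc11 at 8.08, Hoxa3 at 6.57 and Hoxa2 at 6.38 per kb. Hoxb4 at 4.09, Hoxb3 at 3.53, Hoxa4 at 3.45, Hoxb2 at 3.39, Hoxa11 at 3.21 and Hoxd9 at 2.50 per kb were lower still. In all, 22 members reached a mean signal of 5, the minimum for a test. All neighbours from Hoxa7 to the end of the order had overlapping ranges. The same signal was also divided by the exon bases shared with no other gene, called unshared length. By it Hoxa7 rose from 40.9 to 51.4 per kb and Hoxc10 from 51.4 to 56.3, with the order of the first 11 members unchanged. These levels are too high where reads on shared bases were counted. Among lower members, Hoxb3 went from 3.53 to 7.50 per kb by unshared length, above Hoxb4, and Hoxa3 from 6.57 to 9.01, above Hoxd8. Hoxa11 went from 3.21 to 4.93 and Hoxb2 from 3.39 to 4.67, also above Hoxb4, so the order of the lower members depends on the exon length used. In the Ctrl libraries alone, the first 12 members had the same ranks as over all 6.

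**Figure D2:**
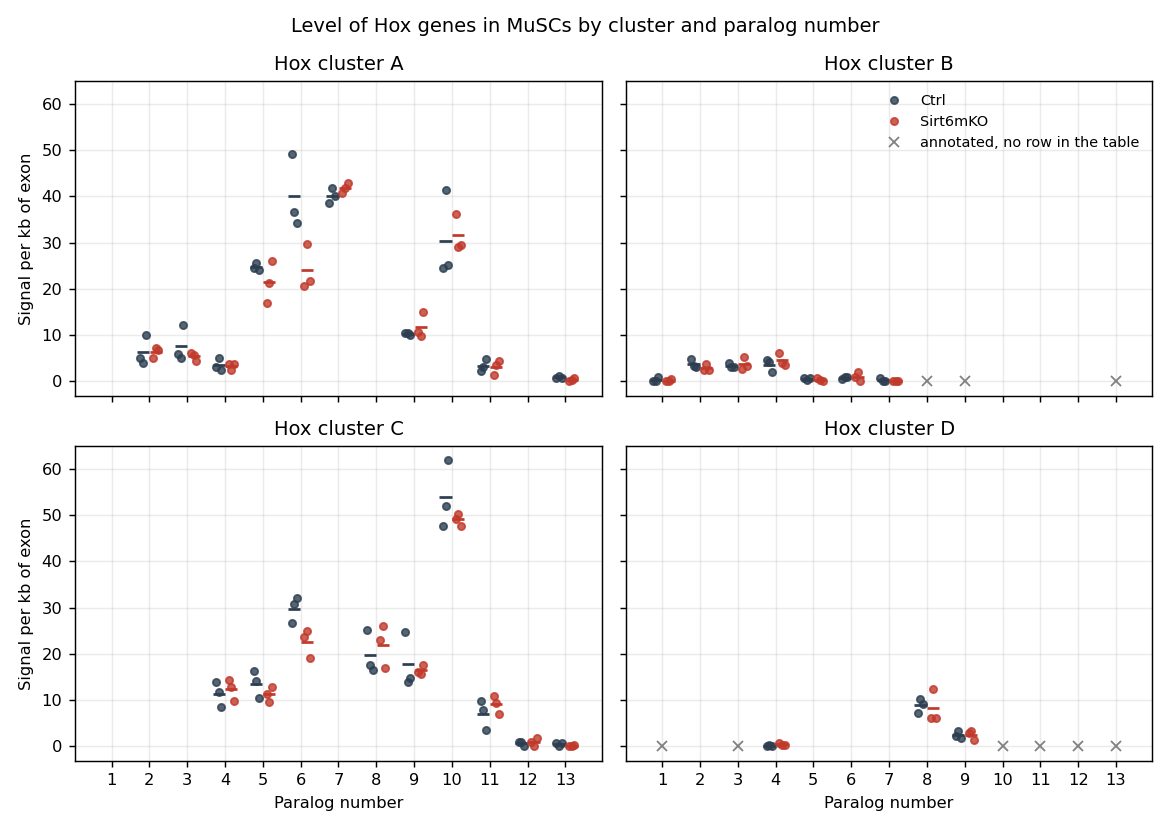
Signal per kb of exon (vertical axis) against paralog number (horizontal axis) for the Hox genes of each cluster, with a point per library and a line at the mean of each group. Crosses mark annotated genes that have no row, and 29 members are drawn. Levels peak at Hoxa5 to Hoxa7 and Hoxa10 in cluster A and at Hoxc6 and Hoxc10 in cluster C. No gene of clusters B and D has a mean over all 6 libraries above 8.56.

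The remaining 8 members had a mean signal under 5. Hoxb6 reached a signal of 4, Hoxa13 of 3, and Hoxb1, Hoxb5, Hoxc12, Hoxc13 and Hoxd4 of 2. Hoxb7 was listed at 0 in 5 of 6 libraries and at 1 in Ctrl replicate 1, where a single read was recovered. Hoxa13 and Hoxc13, paralogs of the distal limb and tail, had 10 and 4 reads over all libraries. These 8 genes had 1 to 12 reads each over the 6 libraries, too few to show a fall or a small rise. With no filter on low values, 0 of 30 members were called.

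The profile thus had sharp steps between adjacent genes. In cluster C, Hoxc10 was at 51.4 per kb, whereas Hoxc11, the next gene on its 5′ side, was at 8.08 and Hoxc12 at 0.808. In cluster A, Hoxa10 was at 30.9, Hoxa11 at 3.21 and Hoxa13 at 0.674. Toward the 3′ side, Hoxa5 was at 23.1 and Hoxa4 at 3.45. In cluster B the genes on the 3′ side were the higher ones, with Hoxb2, Hoxb3 and Hoxb4 at 3.39 to 4.09 (4.09 to 7.50 by unshared length) and Hoxb5, Hoxb6 and Hoxb7 at 0.108 to 0.933 per kb.

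Paralogs of the same number were at different levels in different clusters. For number 6, Hoxa6 and Hoxc6 were at 32.0 and 26.2 per kb and Hoxb6 at 0.933. For number 5, Hoxa5 was at 23.1, Hoxc5 at 12.5 and Hoxb5 at 0.479. For number 9, Hoxc9 was at 17.1, Hoxa9 at 11 and Hoxd9 at 2.50. Numbers 4 and 8 had their highest member in cluster C, with Hoxc4 at 11.9 and Hoxc8 at 20.9, against Hoxb4 at 4.09 and Hoxd8 at 8.56. At number 3 the pair was closer, with Hoxa3 at 6.57 and Hoxb3 at 3.53, or 9.01 and 7.50 by unshared length.

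Promoter windows of RefSeq, from 250 bases before to 50 after a start site (GRCm38.p6), were matched for 22 of the 39 Hox genes. Their 24 windows held a median of 14.5 CpG dinucleotides (4 to 45), against 7 in all 32851 windows. The 13 windows of tested members had a median of 14 and the 8 windows of genes without a row a median of 21. The 3 windows of members with a mean signal under 5 had a median of 10 (4 to 45). Hoxa6 had 26 CpG in its window and Hoxa9 4.

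For Sirt6mKO against Ctrl, no Hox gene passed the test. limma-trend on log2(signal + 1) with Benjamini-Hochberg adjustment over all 14227 tested genes called 0 of 22 Hox members at an adjusted p no higher than 0.05 with a fold change no smaller than 2, beside 2.59% of all tested genes. A count of 0 in 22 is near this background. Without the minimum fold change it was again 0 of 22, beside 4.52%. An unadjusted p under 0.05 was reached by 2 of 22, Hoxa6 and Hoxc6, beside 18.1% of all genes. limma voom on the recovered reads also called 0 Hox members.

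The log2 fold changes ran from -0.71 (Hoxa6) to 0.42 (Hoxc11) in the 21 members given one by one, and the median over all 22 was -0.04 against 0.0 over all tested genes. By cluster the median was 0.01 in A (10 tested), 0.08 in B (3 tested), -0.07 in C (7 tested) and -0.10 in D (2 tested). Anterior, central and posterior members had medians of 0.08, -0.10 and -0.03. Below 0 lay 12 of 22 members, beside 49.6% of all tested genes. The 95% interval stayed within a fold change of 2 in both directions for 13 of 22 members, beside 66.2% of all, and for the other 9 a change of that size in at least 1 direction was not excluded by the interval.

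**Figure D3:**
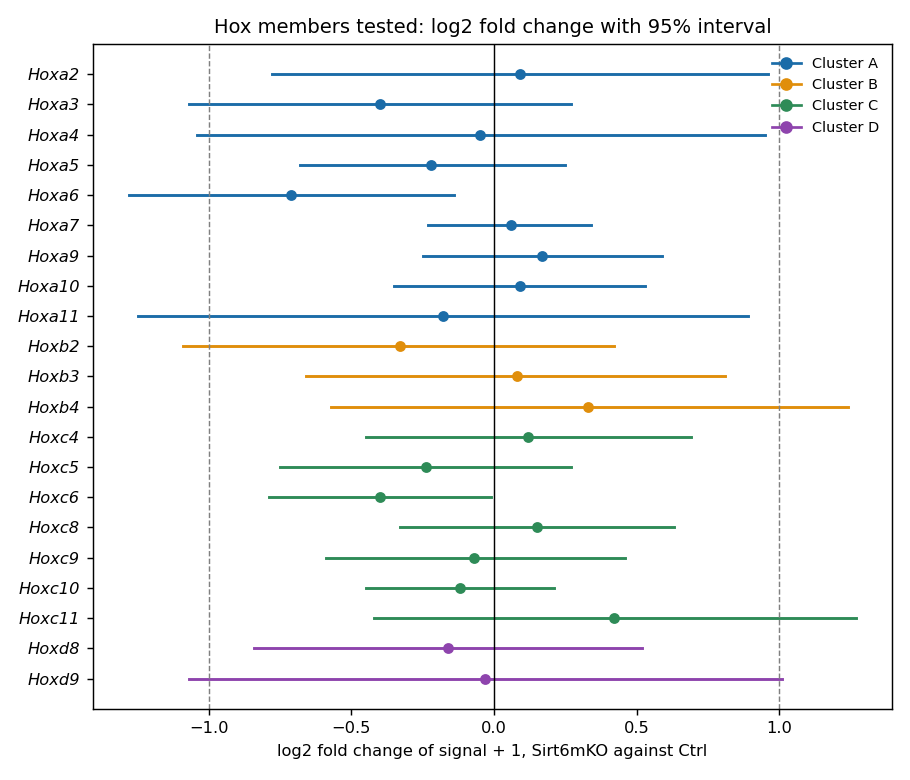
Log2 fold change of signal + 1 (horizontal axis) in Sirt6mKO against Ctrl for 21 of the 22 tested Hox members, with the 95% interval of limma-trend as a bar and the cluster as colour. Dashed lines mark a fold change of 2. All points lie between -0.71 and 0.42, and the intervals of Hoxa6 and Hoxc6 alone lie below 0.

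Among posterior members, which pattern the lumbosacral trunk and the limb, levels of both groups overlapped. Hoxc10 (ENSMUSG00000022484, chr15:102966796-102971893) had a signal of 94, 96 and 91 in Sirt6mKO and of 91, 99 and 118 in Ctrl. The log2 fold change of Hoxc10 was -0.12 (limma-trend, standard error, SE, 0.15, 95% interval -0.45 to 0.21, adjusted p = 0.74). The Sirt6mKO libraries lay within the range of Ctrl, and Ctrl replicate 3 was the highest.

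Hoxa10 (ENSMUSG00000000938, chr6:52231197-52240854), the paralog of Hoxc10, had 118, 95 and 96 in Sirt6mKO and 80, 135 and 82 in Ctrl. Over the groups, Hoxa10 had a log2 fold change of 0.09 (limma-trend, SE 0.20, 95% interval -0.35 to 0.53, adjusted p = 0.87). Ctrl replicate 2 was the highest of the 6 libraries and the other 2 Ctrl libraries were the lowest, so that the direction was set by the libraries included and turned without Sirt6mKO replicate 1, Ctrl replicate 1 or Ctrl replicate 3, and by voom on the reads. The SD was 31.19 in Ctrl and 13 in Sirt6mKO. Variance between the replicates of Hoxa10 was 5.41 times that of counting reads.

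Hoxa9 (ENSMUSG00000038227, chr6:52223100-52231089), which is used in the thoracolumbar trunk and in blood progenitors, had 59, 55 and 83 in Sirt6mKO and 58, 58 and 56 in Ctrl. Its log2 fold change was 0.17 (limma-trend, SE 0.19, 95% interval -0.25 to 0.59, adjusted p = 0.71). Sirt6mKO replicate 3 stood above the other 5 libraries, and without it the log2 fold change was -0.01. Hoxc9, a gene of the thoracic trunk, had 39, 38 and 43 against 60, 34 and 36, with a log2 fold change of -0.07 (limma-trend, SE 0.24, adjusted p = 0.93). Without Ctrl replicate 1, the highest library, it was 0.19.

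The posterior genes of lower level were tested on few reads. Hoxc11 had a signal of 22, 19 and 14 against 20, 16 and 7 and a log2 fold change of 0.42 (95% interval -0.42 to 1.27). Hoxa11, which patterns the middle segment of the limb, had 3, 8 and 10 against 5, 7 and 11 and a log2 fold change of -0.18 (-1.25 to 0.89). Hoxd9 had 6, 7 and 3 against 5, 7 and 4. These 3 rested on 108, 46 and 35 reads over the 6 libraries, and their groups overlapped.

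Central members included the lowest fold change. Hoxa6 (ENSMUSG00000043219, chr6:52206288-52208722), a gene of the cervicothoracic trunk, had 18, 26 and 19 in Sirt6mKO and 43, 32 and 30 in Ctrl. Its groups did not overlap, with a mean of 21 ± 4.36 (SD, n = 3) against 35 ± 7 (SD, n = 3). The log2 fold change of -0.71 (SE 0.26, 95% interval -1.28 to -0.14) did not pass, with an adjusted p of 0.16 by limma-trend, and over the alternatives it was -0.87 to -0.56 with adjusted p from 0.14 to 0.40.

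Hoxc6 (ENSMUSG00000001661, chr15:102998257-103011881), the paralog of Hoxa6, had 57, 60 and 46 in Sirt6mKO and 64, 74 and 77 in Ctrl. Again the groups did not overlap, with a mean of 54.33 ± 7.37 (SD, n = 3) against 71.67 ± 6.81 (SD, n = 3). The log2 fold change of -0.40 (SE 0.18, 95% interval -0.79 to -0.01) did not pass, with an adjusted p of 0.27 by limma-trend, and over the alternatives it was -0.48 to -0.28 with adjusted p from 0.24 to 0.57. These were the only members whose groups did not overlap, 2 of 22 lower and 0 of 22 higher, beside 10.1% and 11.1% of all tested genes.

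Hoxa7 (ENSMUSG00000038236, chr6:52214491-52221854), the neighbour of Hoxa6 on its 5′ side, was the steadiest member, with 117, 120 and 123 in Sirt6mKO and 111, 120 and 115 in Ctrl. The interval of its log2 fold change of 0.06 was among the narrowest (limma-trend, SE 0.13, 95% interval -0.23 to 0.34, adjusted p = 0.88). Hoxa5, the neighbour on the 3′ side and a gene of the cervicothoracic skeleton and the lung, had 32, 40 and 49 against 46, 48 and 45, with a log2 fold change of -0.22 (limma-trend, SE 0.21, adjusted p = 0.66). Both overlapped between groups, although Hoxa5 was lowest in 2 Sirt6mKO libraries.

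In cluster C, Hoxc8, which acts in motor neurons of the brachial cord, had 65, 74 and 48 in Sirt6mKO and 71, 50 and 47 in Ctrl, with a log2 fold change of 0.15 (limma-trend, SE 0.22, adjusted p = 0.79). Hoxc5 had 35, 30 and 40 against 50, 44 and 32, with a log2 fold change of -0.24 (limma-trend, SE 0.23, adjusted p = 0.65). Hoxc4 had 37, 33 and 25 against 36, 30 and 22, with a log2 fold change of 0.12 (limma-trend, SE 0.26, adjusted p = 0.88). In all 3 the groups overlapped, and the direction of Hoxc4 turned without Sirt6mKO replicate 1 or Ctrl replicate 3.

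Hoxd8 was the highest gene of cluster D, with 17, 34 and 17 in Sirt6mKO and 20, 28 and 25 in Ctrl. For Hoxd8 the log2 fold change was -0.16 (limma-trend, SE 0.31, 95% interval -0.84 to 0.52, adjusted p = 0.85). Sirt6mKO replicate 2 was the highest library and the other 2 of the group the lowest. Hoxa4 and Hoxb4 had means of 5.33 and 11.67 in Sirt6mKO and of 5.67 and 9.33 in Ctrl, on 35 and 70 reads.

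Anterior members, which pattern the hindbrain and the pharyngeal arches, were low. Hoxa3, needed for the thymus and parathyroid, had 37, 35 and 26 in Sirt6mKO and 36, 30 and 73 in Ctrl. Ctrl replicate 3, the library of lowest depth, was alone above 37, and the variance between replicates was 6.98 times that of counting. Its log2 fold change was -0.40 (95% interval -1.07 to 0.27, limma-trend adjusted p = 0.55). Hoxa2, which patterns the second pharyngeal arch, had a mean of 11.33 in both groups. Hoxb2 and Hoxb3 had log2 fold changes of -0.33 and 0.08, with intervals of -1.09 to 0.42 and -0.66 to 0.81.

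The sum over all 30 members was 817, 849 and 796 in Sirt6mKO and 867, 875 and 848 in Ctrl, with the highest Sirt6mKO library just above the lowest Ctrl library. Per kb of exon the sum was 315, 336 and 309 against 356, 351 and 337, and the groups did not overlap, although Sirt6mKO replicate 2 and Ctrl replicate 3 were 336 and 337. The per-kb sum of cluster A, to which Hoxa6 belongs, was 143, 156 and 158 against 165, 176 and 167, also without overlap, while the per-kb sums of clusters B, C and D overlapped. Without Hoxa6 and Hoxc6, the per-kb sum was 271, 281 and 268 against 280, 283 and 271, and the groups overlapped. Leaving out these 2 genes was chosen after their values were seen.

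Spread between replicates was like that of other genes of similar level. For the 13 Hox members with a mean signal of 20 to 150, the median variance between replicates was 1.36 times that of counting reads, against 1.52 in 6502 genes of the same range. Their median SD on the log2 scale was 0.272, against 0.244.

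Non-coding genes within the clusters or 20000 bases beside them had 14 rows. Of these 4 were tested and 0 called, beside 2.59% of all tested genes, too few for the count to say much. Hotair, transcribed between Hoxc11 and Hoxc12 on the opposite strand, was the highest at 15.2 per kb, above Hoxc11. It had 27, 35 and 34 in Sirt6mKO and 21, 28 and 38 in Ctrl, with a log2 fold change of 0.17 (limma-trend adjusted p = 0.81). Hoxb3os, antisense to Hoxb2 and Hoxb3, had 10, 9 and 13 against 20, 17 and 7, with a log2 fold change of -0.32 (limma-trend adjusted p = 0.75). Groups of both overlapped.

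The TALE genes include the Pbx, Meis and Pknox genes, whose proteins bind DNA with Hox proteins, and were all in the table and 10 of 11 were tested. Tgif2, a TALE repressor of TGF-beta and retinoid signalling that is no Hox partner of the Pbx or Meis type, fell. It was the only called gene of the 10, beside 2.59% of all tested genes. It had 13, 12 and 16 in Sirt6mKO and 43, 47 and 32 in Ctrl, with a log2 fold change of -1.50 (limma-trend, SE 0.27, adjusted p = 0.0072). Pknox1 had the highest signal of them and did not pass, with 354, 342 and 316 against 310, 432 and 376. The median log2 fold change of the 10 was -0.09.

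Of the Polycomb genes 30 of 32 were tested and 0 called, beside 2.59% of all tested genes, at which a count of 0 in a list of this size says little about it. These 30 had a median log2 fold change of -0.12, with a lowest adjusted p of 0.098 by limma-trend. Phc3, a subunit of Polycomb repressive complex PRC1, had 543, 591 and 568 in Sirt6mKO and 638, 582 and 620 in Ctrl. Jarid2, a subunit of PRC2, had 471, 546 and 450 against 557, 567 and 502. Trithorax and H3K27 demethylase genes were tested in 23 of 23 and called in 0, beside the same 2.59%, with a median of -0.10 and a lowest adjusted p of 0.15 by limma-trend. The highest were the histone methyltransferase genes Kmt2c and Ash1l, with log2 fold changes of 0.17 and 0.03.

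Other transcription factors of muscle or limb position had rows for 26 of 29 genes and 19 were tested. Tbx5, Pitx1 and Hand2 had no row. Alx4, a homeobox gene of the limb bud and the craniofacial mesenchyme, rose, with 76, 36 and 59 in Sirt6mKO and 23, 8 and 4 in Ctrl. It was the only called gene of the 19, beside 2.59% of all tested genes. Its log2 fold change was 2.44 (limma-trend, SE 0.48, adjusted p = 0.013), and no gene of the list was called without Sirt6mKO replicate 1 or without Ctrl replicate 2. Fibroblast markers moved with it, 4 of 8 tested (Col1a1, Col1a2, Clec3b and Pdgfra) being higher in Sirt6mKO by both thresholds, beside 1.57% of all tested genes, and their part in the Alx4 value was not tested. Msc and Prrx1, a myogenic repressor and a mesenchymal homeobox gene, had the highest signal, with log2 fold changes of -0.06 and 0.33 that did not pass.

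Retinoic acid induces Hox genes in the embryo. Of its synthesis, receptor and breakdown genes 17 of 18 had rows, 10 were tested and 0 called, beside 2.59% of all tested genes. A count of 0 in so short a list says little about it. The median log2 fold change of the 10 was 0.02. Aldh1a1, which makes retinoic acid, had 330, 261 and 365 in Sirt6mKO and 347, 359 and 353 in Ctrl. The receptor gene Rarg had 310, 300 and 262 against 283, 266 and 278. ParaHox and cluster-linked homeobox genes had rows for 5 of 12, with summed signals of 3 to 18 in Sirt6mKO and 2 to 3 in Ctrl, and 0 were tested. Meox2 and Meox1, homeobox genes of the somite, were the highest of them, with 2, 10 and 7 against 0, 2 and 2 for Meox2 and 1, 8 and 6 against 0 in every Ctrl library for Meox1. The tenocyte markers Thbs4, Fmod, Tnmd and Kera were likewise highest in Sirt6mKO replicate 2 and next in Sirt6mKO replicate 3, whereas Scx and Mkx were not. The part of tenocytes in the Meox values was not tested.

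**Figure D4:**
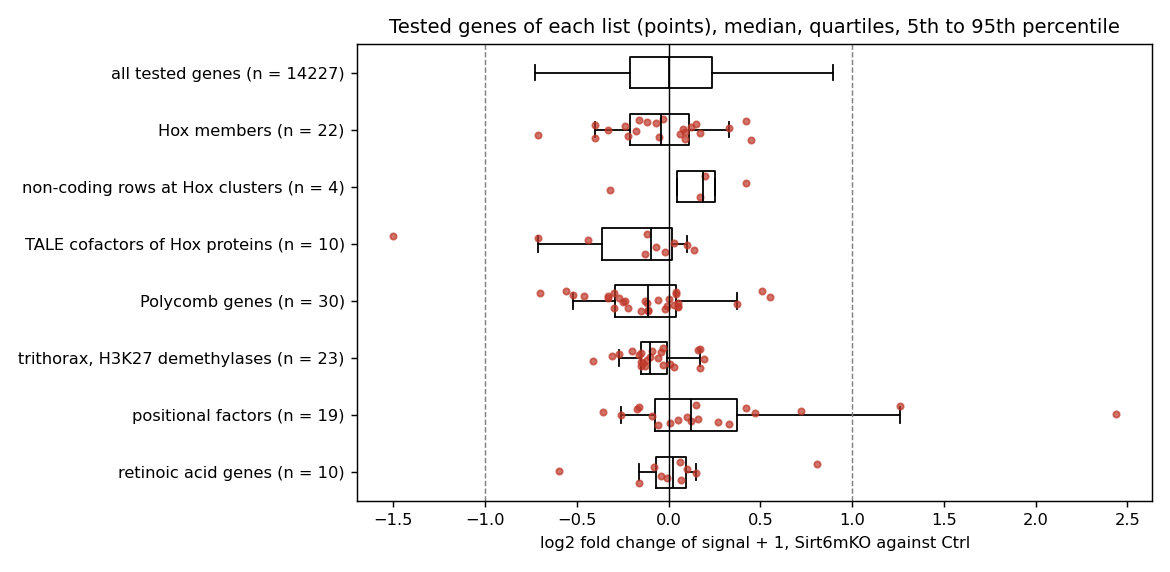
Log2 fold change of signal + 1 (horizontal axis) in Sirt6mKO against Ctrl for all tested genes, the Hox members and the lists around them, with boxes for the quartiles and median, whiskers from the 5th to the 95th percentile and a point per gene of a list. Dashed lines mark a fold change of 2. Tgif2 at -1.50 and Alx4 at 2.44 are the 2 called genes of the lists, and the 22 Hox points stay between the dashed lines.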

How the data were processed

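RNA of MuSCs from 3 Sirt6mKO and 3 Ctrl samples, grouped by their labels, was sequenced with 1 library per sample. The labels name RiboGone depletion, a SMARTer stranded kit and single reads of 75 bases, whereas the methods name RiboMinus and an Ion Total RNA-Seq kit. The submitters' processing notes list Trimmomatic 0.39, STAR 2.7.10a, featureCounts 2.0.2, DESeq2 1.30.1 and the build GRCm38. The deposited values carry no unit. They have the steps of a signal that the authors made from reads per gene with 1 factor per library (0.558 to 1.372) and rounding. From these factors, 99.6 to 100% of low values are reachable, and reads recovered this way are approximate. Total signal was 2272307 to 2369973.

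log2(signal + 1) was fitted by limma-trend (limma 3.58.1, R 4.3.3), two-sided, to the 14227 genes whose mean signal reached 5, with Benjamini-Hochberg adjustment over them. Calls used an adjusted p threshold of 0.05 with a fold change threshold of 2, as in the study's methods. Fold changes on this scale understate those of low genes. The fit was tested on simulated data. Exact permutation tests of 3 against 3 cannot go below 0.1 and were not used. Levels per kb used the union of GENCODE M21 exons, and the table's start and end equalled the annotated ones for all 30 Hox genes. Homeoboxes were located by codons of a conserved stretch of the homeodomain. Values in every library are given for the 12 Hox genes of highest level per kb, and of each other list the called genes and the 2 of highest signal are named, the rest being description. The values of 1 Hox gene and 1 TALE gene are not reported here one by one. The Hox genes, lists and rules were chosen with earlier results of these data known. Alternatives were other scalings, filters, pseudocounts and lengths, a replicate block, voom on recovered reads, an adjusted p alone, and each library left out. Python 3.11.15 (numpy 2.4.6, pandas 2.3.3, matplotlib 3.10.9) served for tables and plots.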

Additional observations from a re-analysis of the deposited data

How the results depend on the processing

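Over all alternatives 0 Hox members were called in either direction, and the median log2 fold change of the tested members stayed between -0.09 and 0.0, also with 25 or 30 members tested under lower filters. Medians of single clusters moved more. The cluster D median, over 2 genes, ran from -0.36 (without Sirt6mKO replicate 2) to 0.13 (without Sirt6mKO replicate 3) and was also above 0, at 0.05, without Ctrl replicate 2. The cluster B median was -0.19 without a filter and ran from -0.18 (without Sirt6mKO replicate 2) to 0.2 over the left-out libraries, and the cluster C median ran from -0.14 (without Ctrl replicate 2) to 0.19 (without Ctrl replicate 1). Of 180 values of the 12 named members, 172 kept their direction and side of the threshold, and 8, all of them small, turned. Hoxa10 was -0.01 by voom. With 1 library left out in turn, Hoxa10 ran from -0.04 to 0.34, Hoxa9 from -0.01 to 0.28, Hoxc4 from -0.07 to 0.27 and Hoxc9 from -0.21 to 0.19. Genes called over the whole table, 223 higher and 145 lower, ran from 97 to 291 and from 84 to 152 with 1 library left out, and were 376 and 267 by adjusted p alone. The higher genes numbered 101 and 97 without Sirt6mKO replicates 1 and 2, and the lower ones 84, 96 and 90 without Sirt6mKO replicate 1, Sirt6mKO replicate 2 and Ctrl replicate 2. By unshared exon length, the level of Hoxa7 was 51.4 and that of Hoxb3 7.50 per kb. Depth limits the genes with few reads, above all in Ctrl replicate 3.

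The replicate numbers of the labels gave correlations of 0.02, 0.07 and 0.19 between same-numbered libraries, the highest being that of replicate 3. Libraries of different numbers had -0.13 to 0.07. The labels do not say whether same-numbered libraries share more than a number, and these correlations do not settle it. With the replicate as a block, 268 genes were higher and 167 lower, 0 Hox members were called, and Hoxa6 and Hoxc6 had log2 fold changes of -0.71 and -0.40 (limma-trend adjusted p of 0.17 and 0.28). Libraries did not all correlate best with their own number.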
